A study of Mus musculus with 18 samples.

Results

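The genes described here are 9 chemokines, Ccl2, Ccl6, Ccl7, Ccl8, Ccl9, Cxcl1, Cxcl12, Cxcl13 and Cxcl14, measured in white adipose tissue and quadriceps muscle of obese mice given prednisone. They were chosen by name, and all 9 were found among the 33641 genes of the table. Their 17 transcripts were summed per gene. Prednisone is a steroid drug of the glucocorticoid class, which the liver turns into its active form. The mice were male wild-type DBA/2J animals, an inbred strain, about 20 weeks old when treatment began. All of them, the vehicle mice included, had eaten a high-fat diet for 12 weeks beforehand and stayed on it through 12 weeks of treatment. Daily mice received 1 mg/kg prednisone by intraperitoneal injection once a day, weekly mice the same dose once a week, and vehicle mice daily vehicle. What weekly mice received on the other days is not given in the sources used here. Both tissues of each of the 9 mice were collected 24 hours after their final injection, so that each of 6 groups held 3 libraries and there were 18 in all. The design text of the series names 2 daily adipose libraries, whereas the sample labels and the table hold 3.

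Chemokines are small secreted proteins that guide the movement of leukocytes and other cells by binding G protein-coupled receptors. CC chemokines such as Ccl2 mainly attract monocytes and other myeloid cells, and CXC chemokines attract neutrophils, lymphocytes or progenitors, depending on the ligand. In obese adipose tissue they are known for the recruitment of macrophages, and glucocorticoids are known to repress many of them in cultured cells.

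The values are TPM, transcript abundances scaled by the authors per transcript length and to a fixed sum in each library, so that levels of different genes can be compared. TPM keeps no read counts, the depth of the libraries is unknown, and no counting interval or detection limit can be given. Between 13413 and 14076 genes reached 1 TPM in adipose libraries, against 11781 to 12200 in muscle libraries. Marker genes fitted the labelled tissues: 7 adipocyte markers summed to 33536 to 37199 TPM in adipose tissue, against 674 to 1709 TPM in muscle. Muscle transcripts varied among adipose libraries, with Ckm, the muscle creatine kinase, at 13.2 to 176 TPM and highest in weekly 2, weekly 3 and daily 2. The value of library 3 lay between those of libraries 1 and 2 of its group for 41.7% to 54.0% of genes averaging at least 5 TPM, and for 33 of the 54 combinations of a chemokine and a group, where exchangeable libraries would give 33.3%. The labels number the libraries but do not say in words that those of a group come from separate mice. Whether library 3 is independent of the others was not tested, and p-values measure the spread between the libraries as numbered. Calls were therefore also made without library 3 of every group.

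Of the 9 genes 5 lie on chromosome 11 (GRCm38), in 2 groups 1.46 Mb apart. Ccl2, Ccl7 and Ccl8 span 81.2 kb on the plus strand, chr11:82035571-82116799, and Ccl9 and Ccl6 are neighbours on the minus strand, 9.245 kb apart within chr11:83572919-83593087. A predicted gene, Gm17268, overlaps Ccl2, and whether the counting used strand is not stated. Cxcl1 (chr5:90891241-90893115) and Cxcl13 (chr5:95956951-95961068) share chromosome 5. Cxcl12 lies at chr6:117168535-117181367 and Cxcl14 at chr13:56288643-56296551. The 250 bases before the start of transcription are printed for 4 of the genes, from RefSeq (GRCm38.p6), which matched 7 of the 9. Ccl9 (chr11:83578637-83578886, minus strand) and Cxcl14 (chr13:56296552-56296801, minus strand) are shown because they are the 2 genes called between regimens. Ccl6 (chr11:83593088-83593337, minus strand) is shown as the neighbour of Ccl9 and the most abundant of the 9 in adipose tissue, and Cxcl1 (chr5:90890995-90891244, plus strand) for its match to the NF-kB motif. Capitals mark matches to the motifs searched.
Ccl9: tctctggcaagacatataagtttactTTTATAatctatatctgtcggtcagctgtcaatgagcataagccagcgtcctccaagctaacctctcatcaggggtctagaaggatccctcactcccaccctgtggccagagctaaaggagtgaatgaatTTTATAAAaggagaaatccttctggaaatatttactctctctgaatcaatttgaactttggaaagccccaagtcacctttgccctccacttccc
Ccl6: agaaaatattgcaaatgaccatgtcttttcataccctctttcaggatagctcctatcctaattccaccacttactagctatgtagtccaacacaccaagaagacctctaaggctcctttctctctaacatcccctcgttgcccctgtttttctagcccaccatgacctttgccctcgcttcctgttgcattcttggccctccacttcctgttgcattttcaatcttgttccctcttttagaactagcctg
Cxcl14: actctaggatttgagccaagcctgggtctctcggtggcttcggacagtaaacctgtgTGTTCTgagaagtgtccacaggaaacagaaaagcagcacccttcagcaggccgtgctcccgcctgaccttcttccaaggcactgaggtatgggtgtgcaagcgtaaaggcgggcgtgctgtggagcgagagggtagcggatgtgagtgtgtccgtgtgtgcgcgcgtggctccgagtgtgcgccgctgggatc
Cxcl1: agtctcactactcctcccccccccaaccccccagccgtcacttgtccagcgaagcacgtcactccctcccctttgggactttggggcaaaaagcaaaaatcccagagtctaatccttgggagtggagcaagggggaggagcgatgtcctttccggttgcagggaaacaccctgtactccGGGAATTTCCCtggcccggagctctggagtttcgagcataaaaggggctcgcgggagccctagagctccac

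Both strands of the 7 promoters and of 32851 RefSeq promoters were searched for 5 motifs. The NF-kB motif, GGGA and TTCC with any 2 bases between them, was matched only in Cxcl1 and in 1.21% of all promoters. In Cxcl1 a match on each strand overlapped the other, 71 to 62 and 70 to 61 bases before the start. The TATA box TATAAA was matched in Ccl8, Ccl9 (3 matches, 2 of them overlapping) and Cxcl13 and in 12.4% of all promoters. AGAACA, the core hexamer of glucocorticoid receptor binding sites, was matched once, in Cxcl14, and in 16.1% of all promoters. Neither the full glucocorticoid receptor motif, GNACA and TGTNC with any 3 bases between them (0.387% of all promoters), nor the PU.1 motif GAGGAAGT (2.44%) had a match in the 7. The absence of a match says only that these letters are not in this window.

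The table lists all 9 chemokines above 0 in both tissues, at levels that spanned a wide range. Adipose tissue was led by Ccl6, a myeloid chemokine of rodents that acts through CCR1, with a mean of 344 TPM (269.9 to 393 TPM over 9 libraries). Its range overlapped that of no other member. Ccl2, the main attractant of monocytes, averaged 145 TPM (113 to 159), and Ccl9, another CCR1 ligand, 132 TPM (93.7 to 200.5). Those 2 genes overlapped, and Ccl2 was the higher of them in 6 of 9 libraries. Below them came Cxcl12, which holds CXCR4-bearing progenitors and lymphocytes in tissues, at 98.5 TPM (82.6 to 119.8), and Ccl7, a CCR2 ligand like Ccl2, at 74.2 TPM (63.3 to 85.0). Ccl9 exceeded Cxcl12, and Cxcl12 exceeded Ccl7, in all 9 libraries although the ranges overlapped. Ccl8, which in mice acts mainly through CCR8, averaged 51.9 TPM (34.3 to 74.96). Cxcl14, a chemokine made by many resting tissues, averaged 24.97 TPM (19.7 to 31.3). Cxcl13, which attracts B cells through CXCR5, averaged 14.3 TPM (7.59 to 26.9), and Cxcl1, which attracts neutrophils through CXCR2, 7.97 TPM (4.55 to 10.5). Ranges overlapped between Cxcl14 and Cxcl13 and between Cxcl13 and Cxcl1. This order is one of gene sums, and much of the sums of Ccl6 and Ccl9 was assigned to transcripts annotated as noncoding. The coding transcript Ccl6-201 averaged 128, 154 and 122 TPM in daily, weekly and vehicle mice, against 138, 150 and 136 TPM for Ccl2-201. Ccl9-201 averaged 53.2, 64.1 and 45.7 TPM in these groups, below Ccl7-201 at 72.8, 79.5 and 70.3 TPM.

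**Figure D1:**
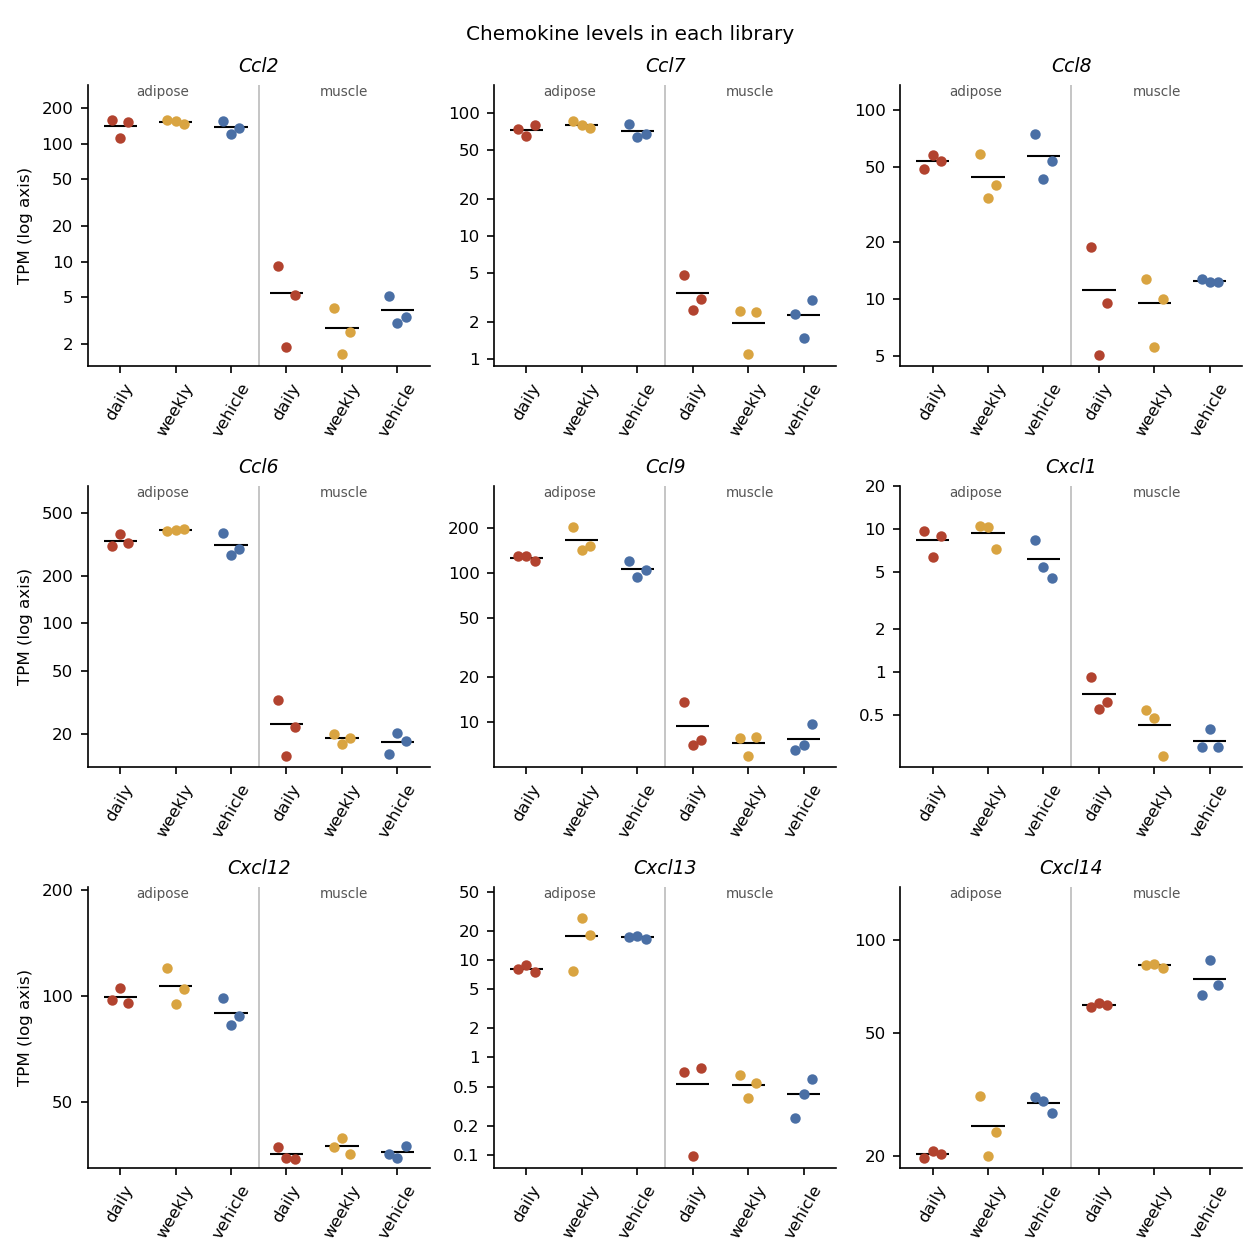
TPM of each chemokine (log axis, with a scale of its own in each panel) in the 3 libraries of each regimen, adipose tissue left and muscle right in each panel, with bars at the group means. All 9 adipose libraries lie above all 9 muscle libraries for 8 genes, and below them for Cxcl14.

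Muscle had another order, again of gene sums. Cxcl14 came first, at 73.0 TPM (60.5 to 86.4 over 9 libraries), followed by Cxcl12 at 36.3 TPM (34.5 to 39.4), and neither range overlapped that of the next gene. Ccl6 averaged 19.9 TPM (14.6 to 32.8), Ccl8 11.1 TPM (5.07 to 19.0) and Ccl9 8.16 TPM (5.96 to 13.7), with ranges that overlapped from each gene to the next. Ccl2 averaged 4.02 TPM (1.64 to 9.22) and Ccl7 2.55 TPM (1.08 to 4.76). Cxcl13, at 0.492 TPM, and Cxcl1, at 0.483 TPM, stayed under 1 TPM in every muscle library and were not tested there between regimens. The ratio of Cxcl14 to Cxcl12 thus ran from 0.197 to 0.365 in adipose libraries, against 1.62 to 2.49 in muscle libraries. The sum of the 9 genes was 729 to 1056 TPM in adipose tissue, against 129 to 179 TPM in muscle.

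How far the tissues differed was tested in the vehicle mice, on each mouse's adipose minus muscle value of log2(TPM + 1), with limma and Benjamini-Hochberg adjustment over 14659 genes. Adipose tissue was higher for 8 of the 9 genes and lower for Cxcl14, all past an adjusted p of 0.05. Of all genes tested 86.3% passed, 72.7% as higher and 13.5% as lower in adipose tissue, so passing this test does not set the chemokines apart. Their median difference was 3.62 on the log2 scale, where that of all genes was 0.88. Ccl2 stood at 155, 123 and 136 TPM in adipose tissue, against 5.15, 3.04 and 3.40 TPM in muscle of the same vehicle mice. That difference was 4.86 ± 0.23 (SE) on the log2(TPM + 1) scale over 3 vehicle mice. This SE and those below, like the p-values, take the spread from all 9 mice, of every regimen. Ccl7 differed by 4.47 ± 0.18, Ccl6 by 4.05 ± 0.22, Cxcl13 by 3.69 ± 0.30 and Ccl9 by 3.62 ± 0.17 on the same scale. Cxcl1 and Ccl8 differed by 2.39 ± 0.15 and 2.07 ± 0.29. Cxcl12 differed least, with 98.3, 82.6 and 87.8 TPM in adipose tissue, against 35.7, 34.7 and 37.6 TPM in muscle, a difference of 1.29 ± 0.09. Cxcl14 ran the other way, with 31.1, 30.1 and 27.6 TPM in adipose tissue, against 66.4, 86.4 and 71.7 TPM in muscle, a difference of -1.30 ± 0.11. The largest adjusted p among the 9 was 7.11e-05, for Ccl8 (limma). For genes of low level log2(TPM + 1) understates the fold. The ratio of mean TPM, adipose tissue over muscle of vehicle mice, was 40.8 for Cxcl13, 35.7 for Ccl2, 31.1 for Ccl7, 18.6 for Cxcl1 and 17.5 for Ccl6, an order in which Cxcl13 comes first.

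The scaling moved every difference between the tissues. With TMM scaling the median of all genes was 0.11 and each chemokine shifted with it, to 3.93 for Ccl2, 3.60 for Ccl7, 3.05 for Ccl6, 3.04 for Cxcl13 and 2.65 for Ccl9. Cxcl1 then stood at 1.82, Ccl8 at 1.09 and Cxcl14 at -2.30. Cxcl12 came to 0.28 ± 0.09, with an adjusted p of 0.0169 (limma), its 95% interval of 0.08 to 0.49 holding the median of all genes. All 9 kept their direction and their call under this scaling.

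**Figure D2:**
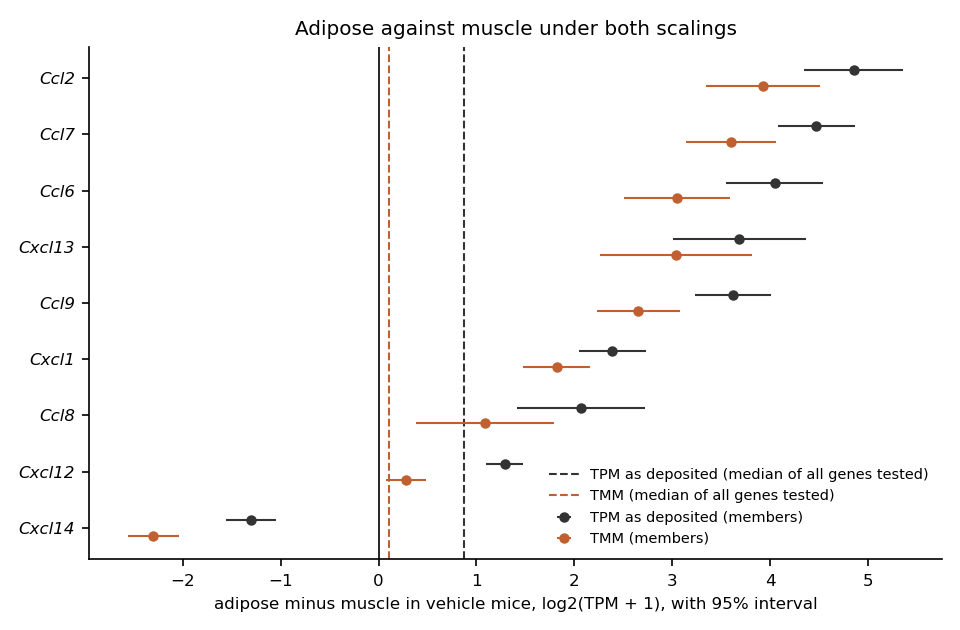
Adipose minus muscle difference of each chemokine in vehicle mice on the log2(TPM + 1) scale (points, with 95% intervals), with TPM as deposited (black) and with TMM scaling (orange), and the median of all genes tested under each (dashed lines). Cxcl14 lies below 0 under both, and Cxcl12 lies near the median of all genes with TMM scaling.

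Markers of leukocytes and of stroma differed between the tissues too. The counts and medians below stand beside 72.7% of all genes called as higher in adipose tissue and a median difference of 0.88 for all genes. For the marker lists they are given with TPM as deposited only. Of the vehicle mice's 15 macrophage markers all 15 were higher in adipose tissue, with a median difference of 2.78, and their sum was 2471 to 3377 TPM there, against 266 to 387 TPM in muscle. The 10 stromal progenitor markers, 9 higher and 1 (Pi16) lower, had a median of 1.27 and sums of 1593 to 1703 TPM in adipose tissue, against 614 to 805 TPM in muscle. In bulk tissue, more cells of a type and more RNA per cell cannot be told apart, and what part these markers have in the chemokine differences was not tested. Of the receptors, 8 of the 13 listed were tested and all 8 were higher in adipose tissue (median 1.56). Ccr2, the receptor of Ccl2 and Ccl7, differed by 2.85 ± 0.12, Cxcr4, the receptor of Cxcl12, by 2.28 ± 0.11, Ackr3, a scavenging receptor of Cxcl12, by 1.05 ± 0.08, and Ccr1, bound by Ccl6 and Ccl9, by 0.99 ± 0.12. Cx3cr1 differed by 2.07 ± 0.18, Ackr1 by 1.00 ± 0.10 and Ackr2 by 0.71 ± 0.17. With TMM scaling the differences of Ackr3, Ackr1 and Ackr2 fell to 0.09, 0.15 and 0.06 and were no longer called, whereas the other 5 stayed called. Cxcr2, Cxcr5 and Ccr8, the receptors of Cxcl1, Cxcl13 and Ccl8, lay under the filter in both tissues. Of 30 other chemokines 20 were tested, and 16 were higher and 2, Ccl21a and Ccl27a, lower in adipose tissue (median 1.11). Cxcl9 differed by 3.66 ± 0.17 and Ccl5 by 3.55 ± 0.25. Further higher ones were Xcl1, Cxcl16, Ccl12, Ccl3, Cxcl10, Ccl4, Pf4, Ccl22, Ccl11, Ppbp, Cxcl2, Ccl24, Ccl19 and Cx3cl1, of which Ccl24, Ccl19 and Cx3cl1 had the opposite sign, and Ccl11 and Ppbp were no longer called, with TMM scaling. Ccl27a differed by -0.63 ± 0.09. Ccl21a shares sequence with Ccl21b and Ccl21c, so that its value of -1.55 ± 0.54 is uncertain.

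Cxcl12 differed between the tissues in the share of TPM assigned to each of its transcripts as well as in level. Its 3 coding transcripts share the first 267 coding bases and part only at the end, where each takes another final stretch. Cxcl12-202 encodes 89 residues, which is the alpha form, Cxcl12-203 encodes 93 residues, the beta form, and Cxcl12-201 encodes 119 residues, the gamma form, whose long tail is rich in lysine and arginine. The coding ends are shown from 18 bases before the point where they part, in lower case, with the bases particular to each transcript in capitals. The last coding exon, without the stop codon, lies at chr6:117173492-117173579 in Cxcl12-202, at chr6:117178583-117178595 in Cxcl12-203 and at chr6:117176086-117176176 in Cxcl12-201 (GRCm38, GENCODE, plus strand).
Cxcl12-202: gagaaagctttaaacaagTAA
Cxcl12-203: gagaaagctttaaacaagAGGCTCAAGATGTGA
Cxcl12-201: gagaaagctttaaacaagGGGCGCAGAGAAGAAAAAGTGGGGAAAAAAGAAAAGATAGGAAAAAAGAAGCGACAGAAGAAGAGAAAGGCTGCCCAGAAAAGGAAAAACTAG

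Cxcl12-202 made up 68.6% ± 5.02 of the TPM of Cxcl12 in adipose tissue (59.0% to 74.9%), against 41.6% ± 2.24 in muscle (38.1% to 44.4%; SD, 9 mice each). Its share was higher in the adipose tissue of 9 of 9 mice, by 27.0 ± 5.75 percentage points. Cxcl12-201 made up 19.4% ± 4.04 in adipose tissue, against 38.1% ± 5.18 in muscle, and was lower in adipose tissue in 9 of 9 mice. Cxcl12-203 made up 9.16% ± 2.06 in adipose tissue, against 17.2% ± 4.98 in muscle, and was also lower in 9 of 9 mice. For each of the 3, an exact two-sided sign-flip test over the 9 mice gave p = 0.00391, the smallest it can give, or 0.0117 adjusted over the 9 transcript shares tested. The 9 shares were those of Ccl6, Ccl9 and Cxcl12. This test was chosen after the shares had been seen, and it pools mice of all 3 regimens. With 6 mice, left when the third of each regimen is taken out, no share passed the adjustment, with 0.0703 for each of these 3 (exact sign-flip test). The smallest p of this test is larger with 6 mice, and a share could then pass only if most of the 9 shares reached it. That loss of the calls therefore decides nothing, and the shares of Cxcl12-202 still differed by 28.4 points. In level, Cxcl12-202 had a mean of 64.6 ± 8.30 TPM in adipose tissue, against 15.1 ± 1.56 TPM in muscle of vehicle mice. Cxcl12-201 averaged 15.4 ± 1.36 TPM in adipose tissue, against 15.0 ± 0.778 TPM in muscle, and Cxcl12-203 7.63 ± 1.88 TPM in adipose tissue, against 4.72 ± 0.991 TPM in muscle (SD, 3 mice each). Cxcl12-202 has 1878 bases, Cxcl12-203 3132 and Cxcl12-201 5627, and TPM divides by length. No uncertainty is known for the assignment of reads among them. RNA quality and coverage along the transcripts were not tested.

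**Figure D3:**
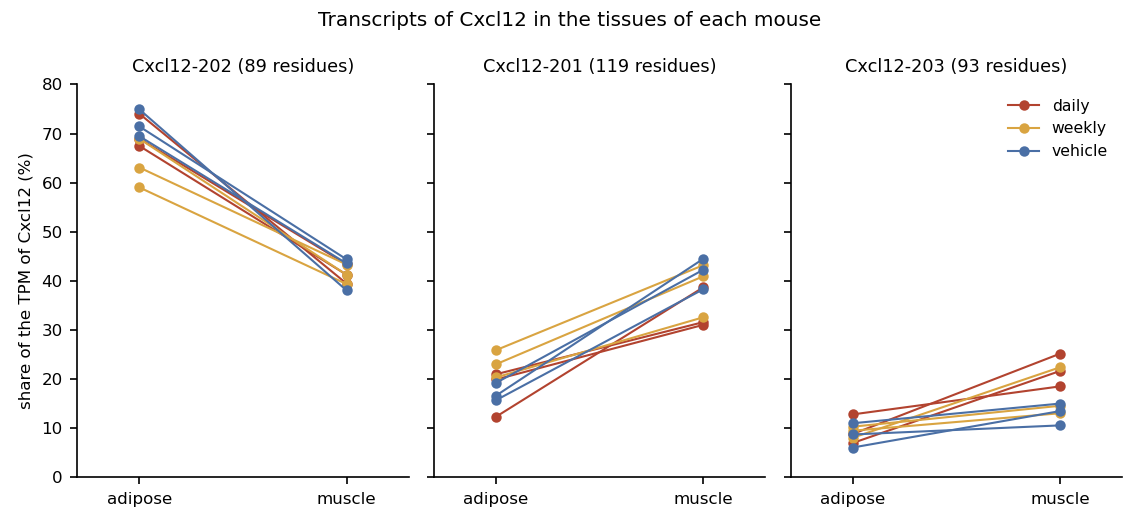
Share of the TPM of Cxcl12 given by each coding transcript in adipose tissue (left) and muscle (right), with a line for each mouse, coloured by regimen. In all 9 mice the adipose point is the higher for Cxcl12-202 and the lower for Cxcl12-201 and Cxcl12-203.

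Much of the TPM of Ccl6 and Ccl9 was assigned to transcripts annotated as noncoding. Ccl6-202, a retained intron transcript, held 56.3% to 65.1% of the TPM of Ccl6 in adipose libraries, against 49.8% to 60.7% in muscle libraries. Ccl9-202, a processed transcript of 398 bases without a coding sequence, held 54.2% to 66.8% of the TPM of Ccl9 in adipose libraries, against 38.2% to 62.5% in muscle libraries. Ccl6-202 has 776 bases. Both are shorter than the coding transcripts of their genes, of 1440 and 3006 bases, and TPM divides by length. Ccl2-201, the coding transcript of Ccl2, held 96.9% to 98.8% in adipose libraries, against 88.0% to 100% in muscle libraries, and Ccl7, Ccl8, Cxcl13 and Cxcl14 have a single transcript in the table. The shares of Ccl6-202 and Ccl9-202 were higher in adipose tissue by 3.599 ± 4.56 and 5.92 ± 6.96 percentage points (SD, 9 mice), each in 7 of 9 mice. Each had p = 0.043 by the exact sign-flip test, or 0.0483 after adjustment. The shares of Cxcl1, with muscle sums under 1 TPM, and of Ccl2, with a minor transcript at 0 TPM in some muscle libraries, were left out before adjustment. How the adjusted p would stand with them was not tested. The shares of Ccl9-201 and Ccl9-202 mirror each other, so they are not separate tests. When single mice were left out, Ccl6-202 passed only without daily mouse 1 and Ccl9-202 in none of the 9 cases, with adjusted p-values up to 0.0967 (exact sign-flip test).

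Weekly prednisone against vehicle in adipose tissue asked what the intermittent regimen changed there. Ccl9 rose, and it was the only 1 of the 9 chemokines called, where 7.43% of all 14150 genes tested in adipose tissue were called and 5.72% as higher (limma, adjusted p under 0.05). Ccl9 stood at 200.5, 142 and 150.4 TPM in weekly mice, against 120.1, 93.7 and 104 TPM in vehicle mice. All 3 weekly libraries lay above all 3 vehicle libraries, and weekly 1 was the highest. The rise was 0.62 ± 0.13 on the log2 scale (SE, n = 3 a group), or 1.53-fold, with an adjusted p of 0.0274 by limma. The call was lost with TMM scaling (0.47, adjusted p = 0.0602 by limma), without a filter on low genes (0.0718) and without the third libraries (0.306). It was also lost without weekly 3 (0.0696), vehicle 2 (0.0686) or vehicle 3 (0.0873), and the adjusted p ran from 0.0103 to 0.306 over all alternatives tried.

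Ccl6, which lies next to Ccl9, had 383, 386 and 393 TPM in weekly mice, against 370.1, 269.9 and 295 TPM in vehicle mice. These groups did not overlap either, as was so for 35.4% of all genes in this comparison, and weekly libraries lay close together whereas vehicle 1 stood near them. The log2 fold change of Ccl6 was 0.33 ± 0.11 with an adjusted p of 0.0855 (limma), which passed only when vehicle 1 was left out (0.46, adjusted p = 0.0305). Cxcl1 had 10.5, 10.3 and 7.30 TPM in weekly mice, against 8.48, 5.42 and 4.55 TPM in vehicle mice, which overlap. Its log2 fold change was 0.56 ± 0.22, with a 95% interval of 0.06 to 1.06 and an adjusted p of 0.128 (limma). Neutrophil markers, of cells that Cxcl1 attracts, summed to 68.4 to 76.8 TPM in weekly mice, against 108 to 140 TPM in vehicle mice, and of 3 tested S100a8 fell, by 0.75 on the log2 scale. Cxcl12 had 119.8, 94.99 and 104.8 TPM in weekly mice, against 98.3, 82.6 and 87.8 TPM in vehicle mice, a log2 fold change of 0.25 ± 0.10 with an adjusted p of 0.121 (limma). The median gene rose by 0.13 in this comparison with TPM as deposited and by 0.00 with TMM scaling, and the median of the 9 chemokines was 0.18. Ccl2 and Ccl7 had log2 fold changes of 0.16 ± 0.13 and 0.18 ± 0.11, Ccl8 -0.36 ± 0.22, Cxcl14 -0.25 ± 0.14 and Cxcl13 -0.13 ± 0.32, none called. Cxcl13 was the most variable, with 7.78, 26.9 and 17.99 TPM in weekly mice, against 17.2, 17.8 and 16.6 TPM in vehicle mice.

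Of the receptors tested in adipose tissue 2 of 8 rose with weekly prednisone and 0 fell, with a median log2 fold change of 0.40. Ccr1, which binds Ccl6 and Ccl9, had 4.57, 2.57 and 3.22 TPM in weekly mice, against 1.66, 0.892 and 1.53 TPM in vehicle mice. It rose by 0.91 ± 0.21 on the log2 scale (adjusted p = 0.0373, limma), and it passed in 2 of the 9 fits that each left out a library, those without daily 2 and weekly 2, with adjusted p-values of 0.0311 to 0.0992 over the 9 (limma). It was not called without a filter (0.0824) or without the third libraries (0.306). Ackr3, which takes up Cxcl12, had 38.4, 46.0 and 43.1 TPM in weekly mice, against 22.8, 24.4 and 25.1 TPM in vehicle mice. It rose by 0.79 ± 0.09 (adjusted p = 0.00423, limma) and passed in all 9 such fits, but not without the third libraries (0.256). Of 19 other chemokines 2 rose and 0 fell: Ccl27a by 0.47 ± 0.10, and Ccl11, an attractant of eosinophils, by 0.31 ± 0.07. Neither was called with TMM scaling, where their log2 fold changes were 0.34 and 0.16. They were also not called without a filter (adjusted p = 0.0548 and 0.0605) or without the third libraries (adjusted p = 0.328 and 0.340, limma). Of the 9 fits that each left out a library Ccl27a passed in 6 and Ccl11 in 2, and Ccl11 was not called with the replicate block (0.0589, limma). Among 13 NF-kB and cytokine genes Il1r1 (0.72 ± 0.13) and Nfkb1 (0.35 ± 0.09) rose and 0 fell. Of 15 macrophage markers 4 rose (Cd163, Itgam, Lyz2 and Mrc1), and their sum was 3116 to 3661 TPM in weekly mice, against 2471 to 3377 TPM in vehicle mice. Of 10 stromal progenitor markers 7 rose, among them Cd34 by 0.63 ± 0.08 and Col3a1 by 0.81 ± 0.15, and 3 of 7 mesothelial markers rose. Of 6 T cell markers Cd3g fell, by 0.68 on the log2 scale, and no monocyte (4 tested), B cell (5), mast cell (6), endothelial (6), adipocyte (7), skeletal muscle (9) or lymphoid stroma (5) marker was called. Their part in the rise of Ccl9 was not tested. Calls of the NF-kB, cytokine and marker genes were not checked under the alternatives. Without the third libraries, 1 of 13744 genes was called in this comparison. Muscle transcripts were high in weekly 2 and weekly 3. With these as a covariate Ccl9 was at 0.75 (adjusted p = 0.0103, limma). That fit called 4115 of the 14150 genes, against 1052 without the covariate, and the median gene rose by 0.21, against 0.13. The smaller adjusted p is thus not particular to Ccl9.

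**Figure D4:**
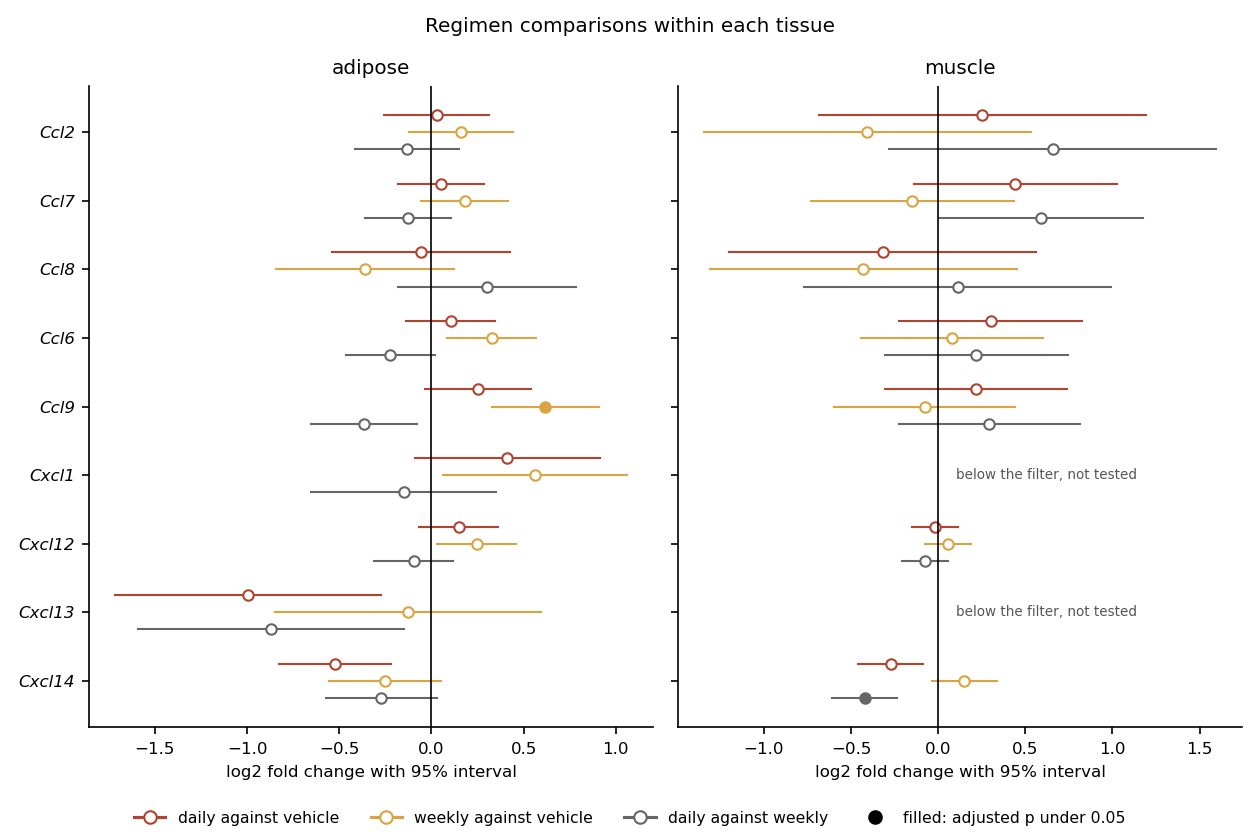
Log2 fold changes of the chemokines between regimens in adipose tissue (left) and muscle (right), with 95% intervals, for daily against vehicle (red), weekly against vehicle (yellow) and daily against weekly (grey). Filled points are the 2 calls, Ccl9 in adipose tissue and Cxcl14 in muscle.

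Daily prednisone against vehicle in adipose tissue called 0 of the 9 chemokines, where limma called 0.00707% of all genes. Unadjusted, 2 of the 9 had p under 0.05, Cxcl13 and Cxcl14, and 1305 of all 14150 genes did. Cxcl13 had 8.04, 8.81 and 7.59 TPM in daily mice, against 17.2, 17.8 and 16.6 TPM in vehicle mice. Cxcl14 had 19.7, 20.8 and 20.3 TPM in daily mice, against 31.1, 30.1 and 27.6 TPM in vehicle mice. For both genes the daily libraries lay below all vehicle libraries, as groups did not overlap for 15.6% of all genes in this comparison. The log2 fold change of Cxcl13 was -0.995 ± 0.323 (95% interval -1.72 to -0.27), with an adjusted p of 0.384 (limma). That of Cxcl14 was -0.52 ± 0.14 (95% interval -0.83 to -0.22), with an adjusted p of 0.330 (limma). Neither passed under any alternative tried. Of all the marker lists 0 genes were called in this comparison. B cell markers, of cells that Cxcl13 attracts, summed to 10.4 to 36.4 TPM in daily mice, against 11.9 to 16.1 TPM in vehicle mice, and 0 of 5 tested were called. Their part was not tested.

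The other 7 chemokines of adipose tissue had log2 fold changes between -0.06 and 0.41 in daily against vehicle mice. Ccl2 had 158, 113 and 153 TPM in daily mice, against 155, 123 and 136 TPM in vehicle mice, a log2 fold change of 0.03 ± 0.13 with a 95% interval of -0.26 to 0.31. For Ccl7 it was 0.05 ± 0.11 (interval -0.18 to 0.29) and for Ccl6 0.10 ± 0.11 (interval -0.14 to 0.35). Ccl8 stood at -0.06 ± 0.22, Cxcl12 at 0.15 ± 0.10, Ccl9 at 0.25 ± 0.13 and Cxcl1 at 0.41 ± 0.22. Among 13 textbook glucocorticoid targets 0 were called in adipose tissue after daily prednisone, and Fkbp5 and Klf9 rose after weekly prednisone, by 0.45 ± 0.09 and 0.44 ± 0.11. Calls of these targets were not checked under the alternatives.

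Between daily and weekly mice 0 of the 9 chemokines were called in adipose tissue, where limma called 0.311% of all genes. Of the 9, 2 had an unadjusted p under 0.05, Ccl9 and Cxcl13, as did 2242 of all 14150 genes. Ccl6 had 308.3, 368.3 and 322 TPM in daily mice, against 383, 386 and 393 TPM in weekly mice, and Ccl9 129, 129.7 and 118.8 TPM in daily mice, against 200.5, 142 and 150.4 TPM in weekly mice. Daily libraries of both lay below all weekly libraries, as groups did not overlap for 25.5% of all genes. The log2 fold change was -0.36 ± 0.13 for Ccl9 and -0.22 ± 0.11 for Ccl6, with adjusted p-values of 0.248 and 0.343 (limma). That of Cxcl13 was -0.87 ± 0.32, with an adjusted p of 0.256 (limma), and it passed when weekly 1, the low weekly library, was left out (-1.33, adjusted p = 0.0301). The comparisons with vehicle and between the regimens share libraries, and so are not independent of each other.

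In muscle 7 of the 9 chemokines were tested among 12246 genes. Cxcl14 fell in daily against weekly mice and was the 1 of the 7 called, where limma called 1.77% of all genes and 0.915% as lower. Cxcl14 had 60.5, 62.3 and 61.5 TPM in daily mice, against 83.2, 83.7 and 81.2 TPM in weekly mice. Each group lay within 3 TPM, and the groups did not overlap, as was so for 23.3% of all genes in this comparison. The log2 fold change was -0.42 ± 0.08 (SE, n = 3 a group), with an adjusted p of 0.0434 (limma). It kept its size under every alternative tried, from -0.44 to -0.39, but the call did not hold. The adjusted p was 0.0617 with TMM scaling, 0.0778 without a filter, 0.0646 with a block for the replicate number and 0.618 without the third libraries. It was 0.0946, 0.0676 and 0.183 without daily 1, 2 and 3, 0.137, 0.0973 and 0.132 without weekly 1, 2 and 3, and 0.0768 without vehicle 3, whose group shares the estimate of the spread.

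Against vehicle mice, with 66.4, 86.4 and 71.7 TPM, Cxcl14 in daily mice was at -0.27 ± 0.08 on the log2 scale (adjusted p = 0.0605, limma), and all daily libraries lay below all vehicle libraries. Groups did not overlap for 33.8% of all genes in that comparison. The call was made only without vehicle 1 (-0.35, adjusted p = 0.0319), and the change was -0.17 both with TMM scaling and without vehicle 2, the highest vehicle library. Daily against vehicle in muscle thus called 0 of 7 chemokines, with 1 at an unadjusted p under 0.05. Of all genes 13.7% were called, and 3676 of 12246 had an unadjusted p under 0.05. Weekly against vehicle also called 0 of 7, with 0 at an unadjusted p under 0.05. There 0.049% of all genes were called, and 1891 of 12246 had an unadjusted p under 0.05. Weekly and vehicle libraries overlapped for all 7, where groups did not overlap for 23% of all genes. Cxcl14 stood at 0.15 ± 0.08 in that comparison.

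The CC chemokines varied most between muscle libraries of a group. Ccl2 had 9.22, 1.89 and 5.26 TPM in daily mice, 4.07, 1.64 and 2.52 TPM in weekly mice and 5.15, 3.04 and 3.40 TPM in vehicle mice. Ccl8 had 19.0, 5.07 and 9.57 TPM in daily mice, 12.9, 5.63 and 10.0 TPM in weekly mice and 12.9, 12.4 and 12.4 TPM in vehicle mice. Daily 1 was the highest muscle library, and daily 2 or weekly 2 the lowest, for Ccl2 and Ccl8, and daily 1 was also the highest for Ccl6 (32.8 TPM), Ccl7 (4.76 TPM) and Ccl9 (13.7 TPM). The 95% intervals were wide, from -0.69 to 1.19 on the log2 scale for Ccl2 and from -1.20 to 0.56 for Ccl8 in daily against vehicle mice. Ccl7 was higher in all daily than in all weekly libraries, with 4.76, 2.49 and 3.06 TPM in daily mice, against 2.42, 1.08 and 2.37 TPM in weekly mice. Its log2 fold change of 0.59 ± 0.26 had an adjusted p of 0.282 (limma), and groups did not overlap for 23.3% of all genes in that comparison. Cxcl12 was the steadiest, with a 95% interval of -0.15 to 0.11 for daily and of -0.08 to 0.19 for weekly against vehicle.

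Of 6 receptors tested in muscle, Cxcr4 and Ccr2 rose in daily against vehicle mice and 0 fell, and the median log2 fold change of the 6 was 0.07. Of all 12246 genes, 234 were called as higher and 1440 as lower in this comparison, with a median of -0.089. With TMM scaling 367 were higher and 446 lower, with a median of -0.003. In daily against weekly mice 105 were higher and 112 lower with TPM as deposited, with a median of -0.030. Cxcr4 had 7.42, 4.43 and 5.78 TPM in daily mice, 2.65, 2.40 and 2.16 TPM in weekly mice and 3.11, 2.52 and 2.82 TPM in vehicle mice. It rose by 0.83 ± 0.15 on the log2 scale against vehicle (adjusted p = 0.00915) and by 0.99 ± 0.15 against weekly mice (adjusted p = 0.0162, both limma). Ccr2 had 3.29, 1.81 and 2.55 TPM in daily mice, 1.18, 0.555 and 1.02 TPM in weekly mice and 1.11, 1.29 and 1.37 TPM in vehicle mice. It rose by 0.63 ± 0.18 against vehicle (adjusted p = 0.0428) and by 0.88 ± 0.18 against weekly mice (adjusted p = 0.0445, both limma). Against vehicle, Cxcr4 passed in all 9 fits that each left out a library and Ccr2 in 3 of them, and neither passed without the third libraries (0.180 and 0.295). Ccr2 passed without daily 2, weekly 1 or weekly 2, with adjusted p-values of 0.0225 to 0.132 over the 9 (limma). Against weekly mice, Cxcr4 was not called without daily 3 (0.0978), weekly 1 (0.0505), weekly 2 (0.0523) or weekly 3 (0.0765), and Ccr2 was called only without daily 2 among the 9. Ccr2 was also not called with a pseudocount of 0.1 (0.0655 against vehicle, 0.0507 against weekly mice), without a filter (0.0935 and 0.0873) or, against weekly mice, with the replicate block (0.0616, limma). Of 15 macrophage markers 3 rose against vehicle (Ctss, Lyz2 and Cd68) and the other 12 were not called. The sum of the 15 was 427 to 664 TPM in daily mice, 279 to 289 TPM in weekly mice and 266 to 387 TPM in vehicle mice. Their part in the rise of the receptors was not tested. Of 4 mast cell markers 3 fell against vehicle (Tpsb2, Mcpt4 and Cpa3), and their sum was 21.5 to 28.0 TPM in daily mice, 34.5 to 36.3 TPM in weekly mice and 35.5 to 42.9 TPM in vehicle mice. Of 12 other chemokines 1 fell against vehicle, Ccl25, by 0.37 on the log2 scale (0.29 and not called with TMM scaling). The stromal gene Col3a1, the mesothelial gene Msln and the fast myosin light chain Mylpf rose, by 0.86, 0.91 and 0.33, and Ckm fell by 0.21 on the log2 scale. Against weekly mice Cxcl16 rose by 0.75 ± 0.15 and Ccl11 fell by 0.37, but among other alternatives neither was called with the replicate block (0.109 and 0.0921) or without the third libraries (0.618 for both, limma). Of 10 NF-kB and cytokine genes Relb rose, by 0.24 ± 0.07, and of 13 glucocorticoid targets 3 rose (Cdkn1a, Mt2 and Fkbp5) and 1 fell (Klf9) in daily against vehicle mice. Calls of these genes and of the marker genes were not checked under the alternatives. Without the third libraries, 7 of 11999 genes were called in daily against vehicle mice.

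**Figure D5:**
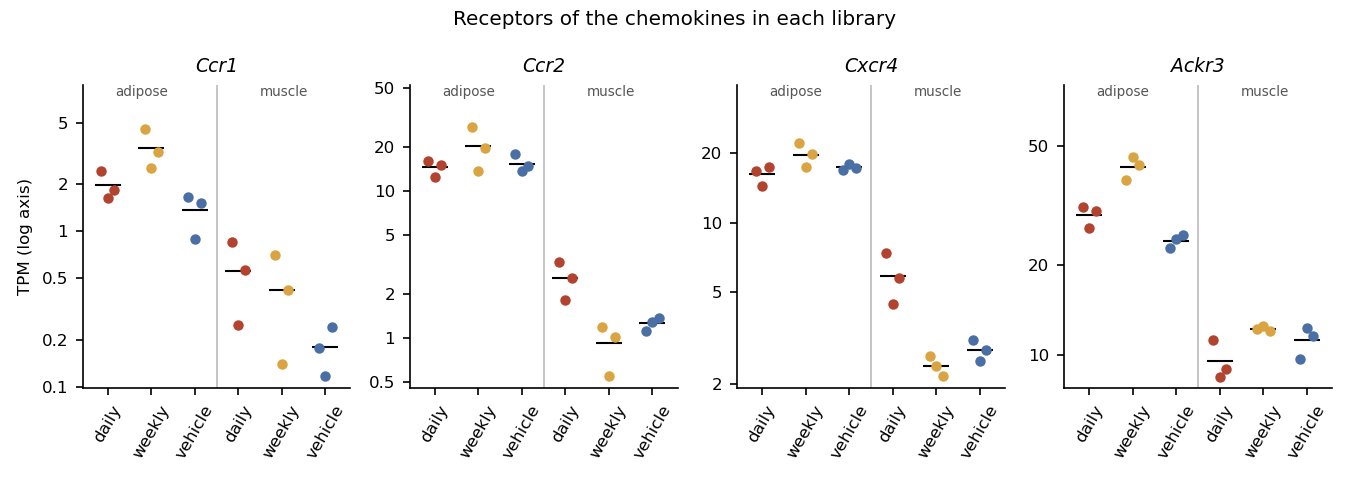
TPM (log axis, with a scale of its own in each panel) of the receptors Ccr1, Ccr2, Cxcr4 and Ackr3 in the 3 libraries of each regimen, adipose tissue left and muscle right in each panel, with bars at the group means. Cxcr4 and Ccr2 are highest in the daily mice within muscle, and Ackr3 is highest in the weekly mice within adipose tissue.

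Whether a regimen acted differently in the tissues was tested on each mouse's adipose minus muscle value, over 11737 genes. Of the 7 chemokines 0 were called for daily against vehicle, with 0 at an unadjusted p under 0.05, where limma called 0.0596% of all genes and 1660 had an unadjusted p under 0.05. For weekly against vehicle 0 of 7 were called, with 2 at an unadjusted p under 0.05, where 2.56% of all genes were called and 3245 had an unadjusted p under 0.05. Ccl9 came closest, with a weekly effect 0.69 ± 0.24 larger in adipose tissue than in muscle (95% interval 0.15 to 1.24, adjusted p = 0.112, limma), so its call in adipose tissue alone does not show that the tissues differ. For Cxcl14 the weekly effect in adipose tissue minus that in muscle was -0.40 ± 0.16 (adjusted p = 0.138, limma).

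Single transcripts were tested as genes were. Of the 17 transcripts of the 9 genes 16 were tested in adipose tissue and 12 in muscle, and limma called 0 in any of the comparisons. Over the 3 comparisons of a tissue, 15 of 48 such tests in adipose tissue (31.3%) and 5 of 36 in muscle (13.9%) had an unadjusted p under 0.05, where the share over all transcripts was 10.4% in adipose tissue and 15.1% in muscle. Transcripts of a gene, and comparisons that share libraries, are not independent tests. Of all 36256 transcripts tested in adipose tissue 0.00276% were called for daily and 0.0855% for weekly against vehicle and 0.00827% for daily against weekly mice. Of the 24128 tested in muscle 5.64% were called for daily and 0.0249% for weekly against vehicle and 0.332% for daily against weekly mice. For the coding transcript Ccl9-201 the values were 66.6, 65.0 and 60.7 TPM in weekly mice, against 54.1, 41.1 and 42.1 TPM in vehicle mice, and for Ccl9-202 133.9, 77.0 and 89.7 TPM in weekly mice, against 66.0, 52.6 and 62.4 TPM in vehicle mice. Both transcripts were higher in all weekly than in all vehicle libraries, and the high value of weekly 1 lay in Ccl9-202. Groups did not overlap for 35.4% of all genes in this comparison, and the share over all transcripts was not counted. The adjusted p was 0.119 for Ccl9-201 and 0.155 for Ccl9-202 (limma).

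The chemokines also differed in how they varied together, over the 9 libraries of a tissue, which share regimens and composition. Ccl2 and Ccl7, neighbours with a common receptor, correlated at 0.89 in adipose tissue and 0.77 in muscle (Pearson's r of log2(TPM + 1)), and Ccl2 was 1.74 to 2.15 times Ccl7 in adipose libraries, against 0.758 to 2.22 times in muscle libraries. Ccl6 and Ccl9 correlated at 0.78 in adipose tissue and 0.80 in muscle, and after the regimen means were taken off at 0.46 and 0.79, against 0.87 and 0.73 for Ccl2 and Ccl7. The highest value was between Ccl9 and Cxcl12 in adipose tissue, at 0.93 (0.94 without the regimen means), and between Ccl7 and Ccl9 in muscle, at 0.85 (0.84). Without the regimen means, the highest were Ccl8 with Cxcl12 in adipose tissue (0.96) and Ccl2 with Ccl8 in muscle (0.94). The 3 genes most like Ccl9 in adipose tissue among 9820 genes were Tfe3 (r = 0.994), Dock2 (0.978) and P3h3 (0.974). Those most like Cxcl12 there were Clec7a (0.970), Grn (0.964) and Fkbp2 (0.957), and those most like Ccl6 were S100a10 (0.970), Pdk4 (0.953) and Tifa (0.946). Those most like Ccl2 were Lrp12 (0.959), Lum (0.947) and Arhgap4 (0.941), and those most like Cxcl13 were D2hgdh (0.955), Sra1 (0.925) and Abat (0.913). In muscle, among 7241 genes, the 3 most like Cxcl14 were Fabp3 (0.960), Aqp1 (0.946) and Pfkfb1 (0.943), and the 3 most like Ccl8 were Stab2 (0.968), Cav2 (0.945) and Sept4 (0.935). With so many genes searched over 9 libraries, high values are found for any gene, and these are descriptions of the libraries.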

How the data were processed

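Stranded mRNA libraries were made from RNA purified with Trizol and RNeasy columns, per the labels' protocols. The deposited table gives the authors' TPM for each transcript with a gene symbol. HISAT2, Trimmomatic and kallisto are named with mm10 in the submitters' processing notes, with no version or role, and the annotation is not given in the sources used here. All columns were used, and depth is unknown.

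Transcript TPM were summed per symbol. Only genes that reached 1 TPM in 3 or more of the 9 libraries of a tissue were tested, as log2(TPM + 1), with limma 3.58.1 in R 4.3.3 (lmFit, eBayes with trend) on all regimens together, with 6 residual degrees of freedom, or on each mouse's adipose minus muscle value. Benjamini-Hochberg adjustment covered all genes of a comparison, and calls were made at 0.05. The fits were tested on simulated data. Tables and figures were made with pandas 2.3.3 and matplotlib 3.10.9 in Python 3.11.15.

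The 9 chemokines and the 16 gene lists beside them were chosen with earlier results of these data known. Every called receptor and chemokine is named, except 1 receptor that is not reported here, with up to 4 genes of each other list by smallest p. Genes most like a chemokine were sought by Pearson's r among genes averaging at least 5 TPM, leaving out predicted genes and pseudogenes. Adipose and muscle libraries were tied to a mouse through the group and number that their titles share, and each mouse gave both tissues per the labels. Nothing ties equal numbers across regimens, where residuals had a median correlation of 0.029 in adipose tissue and -0.030 in muscle. Between adipose tissue and muscle of a mouse the median was 0.046 (-0.10 to 0.15, 9 pairs), also near 0. The tie of the tissues to a mouse thus rests on the titles and labels. Alternatives were TMM scaling (own code), a pseudocount of 0.1, no filter, a block for the replicate number, a covariate for muscle transcripts in adipose tissue, and leaving out the third library of each group or each library in turn. For single genes they were recorded for the chemokines and their receptors only, not for the other gene lists. Positions are from GENCODE (GRCm38), and promoters from RefSeq (GRCm38.p6).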

Additional observations from a re-analysis of the deposited data

Results flagged for a closer look

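Whether the effect of weekly prednisone differed between the tissues was tested on the difference itself (limma, 11737 genes). That test called 1 of 6 receptors and 1 of 11 other chemokines, where 2.56% of all genes were called. The 301 genes called became 6 with TMM scaling and 0 without the third libraries. For Ackr3, the scavenging receptor of Cxcl12, the effect was 0.67 ± 0.11 larger in adipose tissue than in muscle on the log2 scale (adjusted p = 0.0303), with 38.4, 46.0 and 43.1 TPM in weekly against 22.8, 24.4 and 25.1 TPM in vehicle adipose tissue, and 12.2, 12.5 and 12.0 TPM in weekly against 9.67, 12.3 and 11.6 TPM in vehicle muscle. For Ccl27a, a chemokine that attracts T cells to skin, it was 0.60 ± 0.13 larger (adjusted p = 0.0475), with 20.9, 24.8 and 22.9 TPM in weekly against 15.7, 17.999 and 14.9 TPM in vehicle adipose tissue, and 23.0, 24.7 and 22.5 TPM in weekly against 26.8, 24.5 and 25.6 TPM in vehicle muscle. With TMM scaling the adjusted p was 0.127 for Ackr3 and 0.146 for Ccl27a, and of the 9 fits that each left out a mouse 6 and 1 passed. For Ackr3 the call was lost without weekly mouse 3 (0.102), vehicle mouse 2 (0.0789) or vehicle mouse 3 (0.0876), without a filter (0.0666) and without the third libraries (0.350). For Ccl27a it held only without daily mouse 2 (0.0297), and the other 8 adjusted p-values were 0.0552 to 0.140 (limma). Groups of 3 libraries are too small for a search for outlying samples.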

How the results depend on the processing

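The adipose against muscle comparison of the 9 chemokines kept all 9 calls and directions under every alternative run (135 of 135 values). Of the 909 alternative values of the regimen comparisons 46, in 24 results, changed sign, and the cause was not tested. The count of chemokines called fell to 0 for weekly against vehicle in adipose tissue with TMM scaling, no filter and without library 3 of every group (0 to 2 when single libraries were left out). It fell to 0 for daily against weekly in muscle with TMM scaling, no filter, the replicate block and without library 3 of every group (0 to 1 over single libraries). It was 0 to 1 over single libraries for daily against weekly in adipose tissue and for daily against vehicle in muscle. The replicate block changed no other call of the 9 chemokines between regimens. Of the receptors and other chemokines, it ended the call of Ccl11 in adipose tissue (weekly against vehicle). In muscle (daily against weekly) it ended those of Ccl11, Ccr2 and Cxcl16.

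Log2 fold changes that changed sign are given here. Without library 3 of every group, Ccl2 and Ccl7 stood at -0.043 and -0.043 (adipose, daily against vehicle), Cxcl12 at 0.031 (muscle, daily), Ccl9 at 0.013 (muscle, weekly) and Ccl9 at -0.20 (tissue difference, daily). With TMM scaling, Ccl2, Ccl7 and Cxcl12 stood at 0.0012, 0.0073 and 0.039 (adipose, daily against weekly), Cxcl12 at 0.079 (muscle, daily), Ccl9 at -0.054 (tissue difference, daily) and Ccl8 at -0.10 (tissue difference, weekly). Between the tissues, Ccl19, Ccl24 and Cx3cl1 stood at -0.083, -0.23 and -0.18. With the covariate for muscle transcripts, Ccl9 stood at -0.0094 (tissue difference, daily), and Ccl2, Ccl6 and Ccl8 at -0.0030, -0.21 and -0.48 (tissue difference, weekly).

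Ranges over single libraries left out that crossed 0 were as follows. In adipose tissue they were -0.060 to 0.18 for Ccl2, -0.019 to 0.15 for Ccl7 and -0.24 to 0.15 for Ccl8 (daily against vehicle), -0.50 to 0.34 for Cxcl13 (weekly against vehicle), and -0.22 to 0.018 for Ccl2 and -0.30 to 0.016 for Cxcl1 (daily against weekly). In muscle they were -0.17 to 0.74 for Ccl2, -0.76 to 0.10 for Ccl8, -0.058 to 0.38 for Ccl9 and -0.053 to 0.012 for Cxcl12 (daily against vehicle). They were -0.027 to 0.17 for Ccl6, -0.34 to 0.088 for Ccl7 and -0.18 to 0.081 for Ccl9 (weekly against vehicle), and -0.056 to 0.50 for Ccl6 and -0.33 to 0.53 for Ccl8 (daily against weekly). For the tissue difference they were -0.56 to 0.11 for Ccl2, -0.55 to 0.13 for Ccl6, -0.22 to 0.76 for Ccl8 and -0.15 to 0.29 for Ccl9 (daily), and -0.10 to 0.26 for Ccl8 (weekly). The Cxcl12-204 share differed by -0.51 to 0.036 points.

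Counts over all genes moved more. For weekly against vehicle in adipose tissue 1052 genes were called, 291 without a filter, 1 without library 3 of every group and 4115 with the covariate. Over single libraries left out the count ran from 65 (without weekly 3 or vehicle 3) to 1526 (without daily 2), so that the share of genes called depends on single libraries, and TMM scaling turned 809 higher and 243 lower into 458 and 658. For daily against weekly there, 44 became 14 (TMM), 8 (no filter), 12 (block), 0 (without library 3 of every group) and 1707 (covariate), and 2 (without daily 1, daily 3 or weekly 3) to 48 (without vehicle 1) over single libraries. In muscle, daily against vehicle, 1674 became 813 (TMM), 7 (without library 3 of every group) and 506 (without daily 3) to 1647 (without daily 1) over single libraries, with 234 higher and 1440 lower turning into 367 and 446 under TMM scaling. For daily against weekly, 217 became 100 (block), 9 (without library 3 of every group) and as few as 32 (without daily 3) over single libraries, with 105 and 112 turning into 134 and 71 under TMM scaling. For the tissue difference in vehicle mice 10660 higher and 1984 lower became 5991 and 4990 with TMM scaling. The weekly tissue difference of 301 genes became 6 (TMM), 189 (pseudocount), 4 (no filter), 510 (no block), 0 (without library 3 of every group) and 1130 (covariate), and 0 (without vehicle mouse 2) to 585 (without daily mouse 2) over single mice. Depth, which TPM does not keep, limits what can be said of the genes under 1 TPM.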
